A study of Mus musculus with 18 samples.

Results

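The genes described here are 28 genes of cholesterol and lipid synthesis in the thick ascending limb of the mouse kidney, chosen by name for their known place in these pathways out of 55401 genes in the deposited tables. RNA was sequenced from 18 pools of microdissected tubules, each of 150 to 200 structures from 1 mouse, in 4 groups: WT CTAL (5 pools), cKO CTAL (5 pools), WT MTAL (5 pools) and cKO MTAL (3 pools), where CTAL and MTAL are the cortical and medullary thick ascending limb. The cKO mice carried Cldn10 fl/fl and Ksp-Cre, in which the Ksp-cadherin promoter drives the Cre recombinase in the distal nephron. Their WT littermates carried the same Cldn10 fl/fl alleles without Cre, and all mice were males of 4 to 10 months on regular chow, labelled C57BL/6J. The pool labelled WT CTAL replicate 1 has a title that speaks of Cldn10 KO mice and a genotype field that reads knockout. Its name reads WT, and it was used as WT. Every pool came from a mouse of its own, so CTAL and MTAL pools are not paired.

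Cholesterol is built from acetyl-CoA, first through mevalonate to the isoprenoid farnesyl diphosphate, then to squalene and the first sterol lanosterol, and last through a series of sterol intermediates. The SREBP transcription factors switch these genes on when sterol in the endoplasmic reticulum is low: SCAP escorts SREBP to the Golgi, and INSIG holds the complex back when sterol is plentiful. Fatty acid synthesis runs from malonyl-CoA to palmitate and then to monounsaturated fatty acids, and is driven mainly by the SREBP form encoded by Srebf1. Thick ascending limb cells are packed with mitochondria and folded basolateral membrane, and are better known for burning fuel for NaCl transport than for making lipid.

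The pools held 10824328 to 62339991 estimated counts. Cldn10 ran from 383 to 579 CPM, which are counts scaled to the size of the library, in WT CTAL against 156 to 185 in cKO CTAL, and from 665 to 823 in WT MTAL against 151 to 283 in cKO MTAL. This gap is partly fixed by the choice of pools, since per the study's methods cKO pools were kept only where Cldn10 was lower than in WT, and 1 cKO CTAL pool at the WT level was left out. A further 2 cKO MTAL pools were dropped at quality control. WT CTAL replicate 1, whose labels conflict, was at 446 CPM of Cldn10. Umod and the other markers of the thick limb summed to 39257 CPM or more in every pool. Some pools stood apart: the 5 principal cell markers summed to 899 CPM in cKO MTAL replicate 20 and to 297 in WT MTAL replicate 11, against 46.8 to 91.6 in the other MTAL pools. The 5 intercalated cell markers summed to 150.2 CPM in cKO CTAL replicate 2 and 125 in replicate 9, against 38.3 to 56.7 in the other CTAL pools. The 7 proximal tubule markers summed to 66.8 CPM in WT CTAL replicate 22 and 70.4 in cKO CTAL replicate 2. They summed to 74.1 and 66.3 CPM in cKO MTAL replicates 18 and 20, against 13.7 to 44.0 in the other pools. The 6 injury markers summed to 4524 CPM in cKO CTAL replicate 2 and 8162 in cKO MTAL replicate 18. For this sum every cKO pool lay above every WT pool of its segment. It was 1696 CPM or more against at most 1631 in CTAL, and 1999 or more against at most 1280 in MTAL. Most of it was Spp1, at 1034 to 7830 CPM over the pools. Lcn2 was at most 282 CPM, and each of the others at most 39.5. Xist was above 5 CPM in 7 of the 18 pools from these male mice: WT CTAL replicates 3 and 22, cKO CTAL replicate 2 and WT MTAL replicates 11, 15, 17 and 19.

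All 28 members passed the filter on low counts in every comparison. Of the members, 7 encode the enzymes from acetyl-CoA to farnesyl diphosphate, 3 those from there to lanosterol, 9 those of the later sterol steps, 4 the SREBP regulators, 1 a sterol carrier and 4 enzymes of fatty acid synthesis. Together they took 0.1004 to 0.172% of the counts of a pool. Compared per length as TPM, which scales counts to transcript length and library size, Hmgcs1, the synthase of HMG-CoA, stood well above the rest, at 128 ± 11.1 TPM in WT CTAL (SD, n = 5) and 99.4 ± 7.86 in WT MTAL (SD, n = 5). Srebf2, which encodes the SREBP that governs sterol genes, came next at 47.9 ± 6.79 TPM in WT CTAL and 42.0 ± 6.05 in WT MTAL. At the other end, Mvd, the mevalonate diphosphate decarboxylase, was at 2.82 ± 0.449 TPM in WT CTAL and 2.55 ± 0.611 in WT MTAL, and Scd1, a stearoyl-CoA desaturase, was at 2.88 ± 1.46 and 3.70 ± 3.22. Scd2, its neighbour on chromosome 19, was at 19.1 ± 2.67 TPM in WT CTAL and 20.2 ± 7.82 in WT MTAL. The members between ranks 3 and 20 in WT CTAL ran from 32.2 down to 9.43 TPM, and most neighbours in that order did not differ beyond their SD. TPM varied more between pools than CPM for several members, Dhcr7 among them with 15.7 ± 10.7 TPM in WT CTAL.

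**Figure D1:**
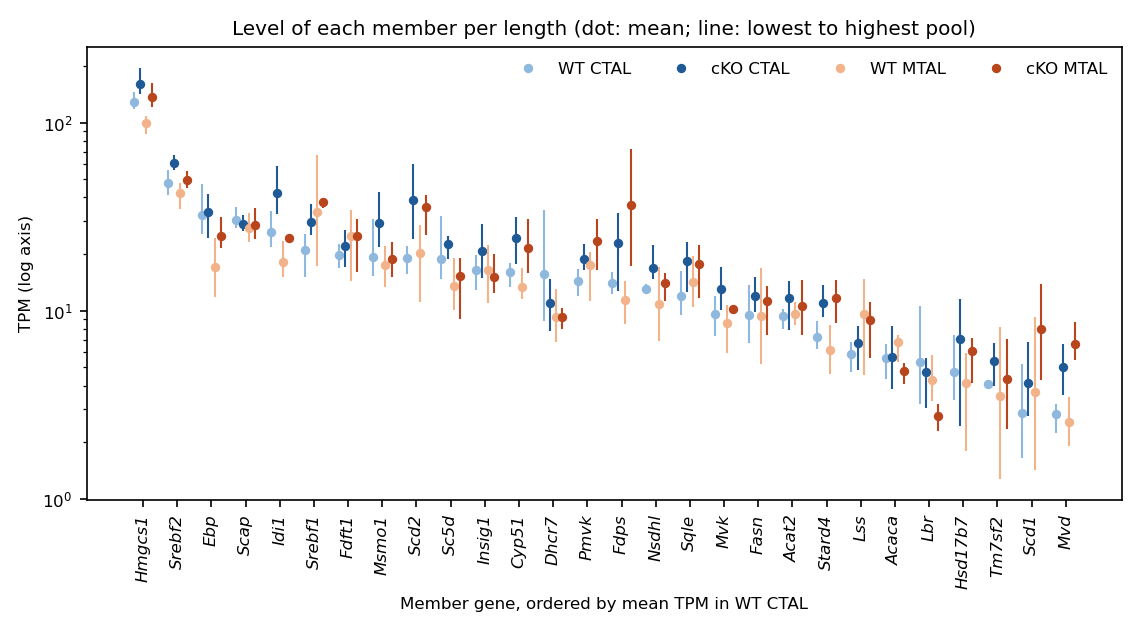
TPM of the 28 members on a log axis, ordered by their mean in WT CTAL, with a dot for the mean and a line from the lowest to the highest pool of each of the 4 groups (n = 5, 5, 5 and 3). Hmgcs1 stands highest in all groups (128 TPM in WT CTAL), and Mvd and Scd1 lowest in WT CTAL (2.82 and 2.88 TPM).

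Members of this pathway are known to share promoter elements for SREBP and its partners, so their promoters were read from the RefSeq table of GRCm38.p6, which runs from 250 bases before to 50 bases after each start and held 28 promoters of 22 members. Fdps, Fdft1, Sqle, Stard4, Scd1 and Scd2 had no entry. The NF-Y box CCAAT, searched on both strands, was in 20 of the 28 member promoters (71.4%) against 37.4% of all 32851 promoters, and the Sp1 box GGGCGG was in 22 (78.6%) against 35.7%. Among the 16 sterol enzyme genes with an entry, 15 held each of these boxes, against 41.1% (NF-Y) and 38.2% (Sp1) of all genes. The boxes were also frequent in the wider lists of sterol and lipid genes described below. Each box was in 57.9% of the sterol genes and 66.7% of the lipid genes with an entry. The sterol response element spelled TCACNCCAC was in 1 member promoter, that of Hmgcs1, against 1.24% of all promoters; other spellings of this element exist and were not searched. The promoters of the most abundant member and of 3 members named in the results below are shown. Of these, Cyp51 passed edgeR's quasi-likelihood test in no comparison. The sterol response element and the NF-Y boxes of either strand are in capitals (a box on the other strand reads ATTGG). None of these motifs was tested for binding here.
Hmgcs1, chr13:119690101-119690400, plus strand: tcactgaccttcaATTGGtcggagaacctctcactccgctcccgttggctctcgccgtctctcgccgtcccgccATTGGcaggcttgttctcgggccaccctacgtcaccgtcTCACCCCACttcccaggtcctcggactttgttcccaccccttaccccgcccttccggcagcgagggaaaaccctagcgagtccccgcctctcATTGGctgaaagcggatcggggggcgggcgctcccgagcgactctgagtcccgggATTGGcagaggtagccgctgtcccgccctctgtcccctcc
Mvd, chr8:122443373-122443672, minus strand: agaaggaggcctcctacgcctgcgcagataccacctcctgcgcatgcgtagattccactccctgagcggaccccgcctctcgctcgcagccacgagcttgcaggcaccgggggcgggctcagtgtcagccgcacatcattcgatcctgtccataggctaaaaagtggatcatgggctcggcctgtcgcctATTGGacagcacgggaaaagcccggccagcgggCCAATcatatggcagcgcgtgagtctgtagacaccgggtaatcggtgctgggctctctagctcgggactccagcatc
Idi1, chr13:8885356-8885655, plus strand: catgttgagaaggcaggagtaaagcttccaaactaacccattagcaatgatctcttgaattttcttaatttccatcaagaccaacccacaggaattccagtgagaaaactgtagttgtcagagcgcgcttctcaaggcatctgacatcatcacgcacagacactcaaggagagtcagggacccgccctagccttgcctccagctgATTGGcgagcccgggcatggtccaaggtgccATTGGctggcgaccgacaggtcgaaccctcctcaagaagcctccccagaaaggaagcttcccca
Cyp51, chr5:4104648-4104947, minus strand: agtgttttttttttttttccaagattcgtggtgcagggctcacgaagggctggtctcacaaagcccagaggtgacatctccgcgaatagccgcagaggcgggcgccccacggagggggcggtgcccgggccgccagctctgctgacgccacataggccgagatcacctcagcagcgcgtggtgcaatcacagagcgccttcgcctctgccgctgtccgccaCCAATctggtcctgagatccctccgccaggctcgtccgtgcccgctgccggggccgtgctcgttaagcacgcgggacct
The Hmgcs1 promoter carried 4 NF-Y boxes besides its sterol response element, Mvd and Idi1 carried 2 each, and Cyp51 carried 1.

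The first comparison, cKO MTAL against WT MTAL, asks what differed with genotype in the segment where Cldn10 is higher in WT. The study reports an incomplete deletion, and nephrocalcinosis in the cKO outer medulla that made cKO MTAL very hard to dissect. The part of that tissue state in these values was not tested. Of the 28 members 4 rose and none fell: Mvd and Fdps among the early isoprenoid enzymes, and the desaturases Scd1 and Scd2. Over all 12060 genes tested, 4.44% rose and 2.57% fell. With the threshold of the study, which also asks for a log2 fold change of at least 1, 3 members rose (Mvd, Fdps and Scd1) against 2.69% of all genes. In whole tubules, more cells of a type and more RNA per cell cannot be told apart.

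Mvd, on the minus strand of chromosome 8 (chr8:122433601-122443422, GRCm38), makes isopentenyl diphosphate, the building block of isoprenoids. It was measured at 7.53, 7.40 and 11.8 CPM in cKO MTAL replicates 16, 18 and 20, and at 5.40, 3.08, 2.77, 4.35 and 3.61 CPM in WT MTAL replicates 11, 13, 15, 17 and 19. All cKO pools lay above all WT pools. The log2 fold change was 1.27 ± 0.36 (SE, adjusted p = 0.0448), a 2.40-fold difference, and the exact two-sided Mann-Whitney test gave p = 0.0357, the smallest that 3 pools against 5 allow. Mvd is a low gene, with 55 to 213 counts per WT MTAL pool and 107 to 203 per cKO MTAL pool.

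Fdps (chr3:89093588-89101959, minus strand) encodes farnesyl diphosphate synthase, whose product feeds sterols as well as protein prenylation. Its levels were 15.1, 14.3 and 41.3 CPM in cKO MTAL replicates 16, 18 and 20, against 10.3, 7.37, 11.2, 12.9 and 11.6 in the WT MTAL pools in the same order as above. The groups did not overlap, but replicate 20 was far above the other 2 cKO pools. The log2 fold change was 1.20 ± 0.32 (SE, adjusted p = 0.0355). Without replicate 20 it was 0.52 (adjusted p = 0.346). Replicate 20 is also the pool with the most principal and intercalated cell markers (899 and 189 CPM), and their part in the Fdps value was not tested. Of the 31-base words of Fdps transcripts, 27.9% also occur in transcripts of other genes, mostly of the overlapping same-strand gene Gm43738, which held at most 15 counts in any pool.

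Scd1 and Scd2 put the double bond into stearic and palmitic acid, and lie near each other on chromosome 19 (chr19:44394455-44407879, minus strand, and chr19:44293674-44306864, plus strand). Scd1 was at 14.6, 25.6 and 13.9 CPM in cKO MTAL replicates 16, 18 and 20, and at 8.09, 10.4, 9.92, 6.27 and 4.89 in WT MTAL replicates 11, 13, 15, 17 and 19. The groups did not overlap (exact two-sided Mann-Whitney p = 0.0357), though on TPM they did (p = 0.143). Its log2 fold change was 1.23 ± 0.31 (SE, adjusted p = 0.0242). Scd2 was at 85.1, 134 and 121 CPM in the cKO pools and at 86.0, 93.6, 55.8, 47.1 and 74.4 in the WT pools, so that cKO replicate 16 lay within the WT range. Its log2 fold change was 0.71 ± 0.20 (SE, adjusted p = 0.0412), and the exact two-sided Mann-Whitney p was 0.143. Both desaturases were highest in cKO MTAL replicate 18, the pool with 8162 CPM of injury markers, mostly Spp1, and 74.1 CPM of proximal tubule markers. Without that pool Scd1 had a log2 fold change of 0.91 (adjusted p = 0.123) and Scd2 of 0.60 (adjusted p = 0.118), and the part of those markers was not tested. Scd1 and Scd2 share 8.14 and 6.81% of their 31-base words with other genes, chiefly the paralogue Scd3, which was at 0.305 to 1.39 CPM in WT MTAL and 0.74 to 4.52 in cKO MTAL.

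The 24 other members had log2 fold changes between -0.82 (Lbr) and 0.49 (Cyp51), with adjusted p from 0.0888 to 0.994. Lbr, a nuclear envelope protein that is also a sterol reductase, was at 6.06, 6.61 and 4.41 CPM in cKO MTAL and at 8.33, 8.68, 10.4, 9.99 and 14.9 in WT MTAL. On CPM it was the single member whose cKO pools all lay below the WT pools (log2 fold change -0.82 ± 0.32, SE, adjusted p = 0.127). Without overlap on CPM 3 members were higher and 1 lower, against 5.61% and 9.41% of all genes. On TPM Acaca was also lower without overlap, and Hmgcs1, Idi1 and Stard4 were higher (exact two-sided Mann-Whitney p = 0.0357 for each). None of the 3 enzymes from farnesyl diphosphate to lanosterol, the 9 later sterol enzymes or the 4 regulators passed the test. The median log2 fold change was 0.13 over the 28 members, 0.11 over the 19 sterol enzymes and 0.00 over all genes tested, and 19 of 28 members had a value above 0 against 50.1% of all genes.

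The number of members that rose in MTAL depended on single pools. Leaving out 1 pool gave 0 to 3 members in place of 4: 0 without WT MTAL replicate 17 or 19, 1 without WT MTAL replicate 15 (Scd1) or cKO MTAL replicate 20 (Scd1), and 2 without WT MTAL replicate 13 (Scd1 and Scd2) or cKO MTAL replicate 18 (Mvd and Fdps). The fold changes of the 4 stayed above 0 in each of these fits, and adjusted p for Mvd ran from 0.0373 to 0.166. Without cKO MTAL replicate 20 and WT MTAL replicate 11, the pools with the most collecting duct markers, Scd1 alone rose. limma on log2(TPM + 1) gave 0 members, where Mvd had a log2 fold change of 1.10 and an adjusted p of 0.0706. On that scale the median over all genes was 0.22 and 90.3% of the 258 calls were higher, against 63.3% of the 845 calls on counts, and the members' median was 0.33.

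**Figure D2:**
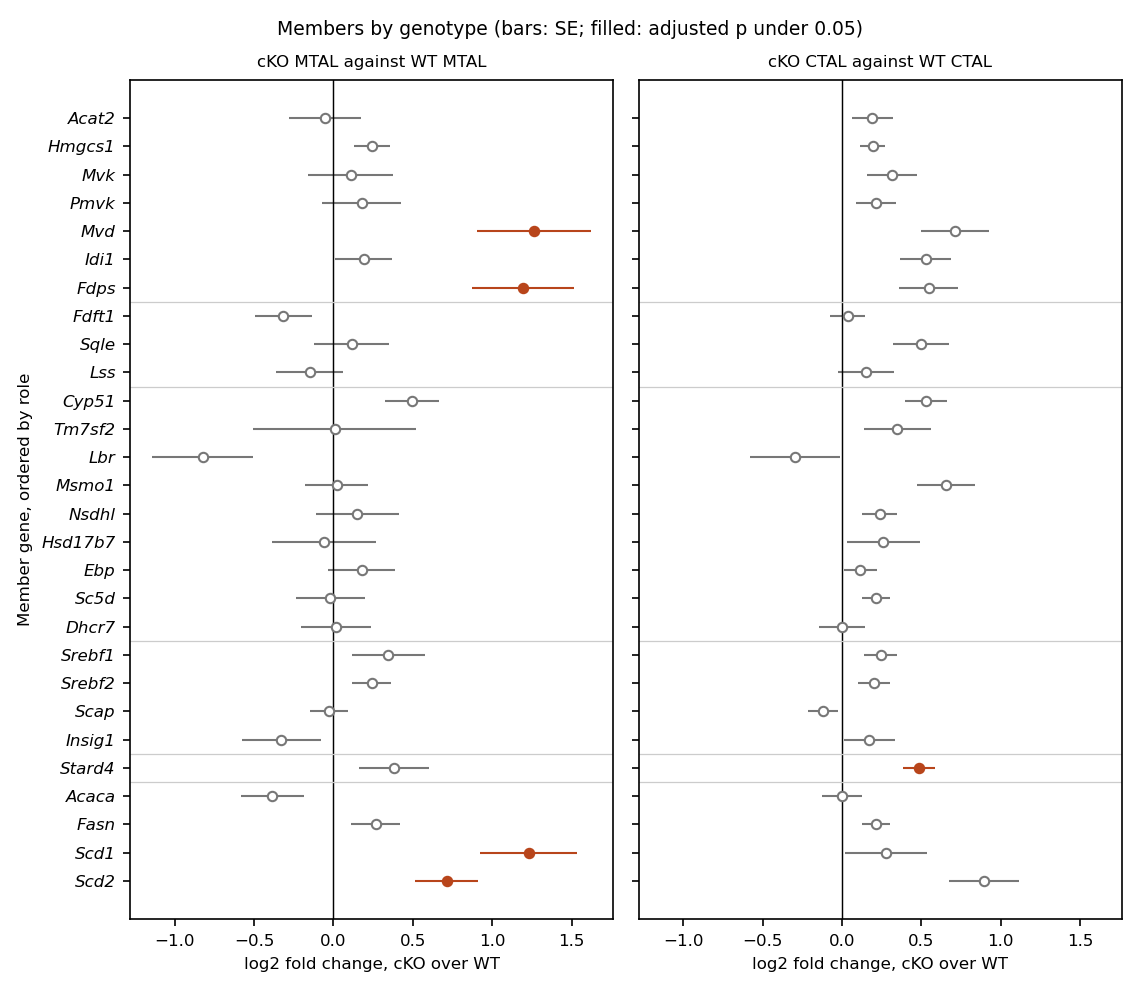
log2 fold change of cKO over WT (horizontal axis) for each member (vertical axis, by role) in MTAL (left; 3 against 5 pools) and CTAL (right; 5 against 5), with bars of 1 SE and filled points where adjusted p was under 0.05. Mvd, Fdps, Scd1 and Scd2 are filled in MTAL and Stard4 in CTAL, and the points lie above 0 for 19 of 28 members in MTAL and 26 of 28 in CTAL.

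The second comparison, cKO CTAL against WT CTAL, asks the same of the cortical segment, where some tight junctions carry claudin-10 and others carry other claudins. Stard4, which carries cholesterol between membranes, was the 1 member that rose, and no member fell, against 0.658% of 11702 genes that rose and 0.564% that fell. Stard4 was at 34.7, 36.4, 33.4, 40.7 and 37.8 CPM in cKO CTAL replicates 2, 4, 7, 9 and 21, and at 27.95, 26.9, 28.7, 24.1 and 22.2 in WT CTAL replicates 1, 3, 8, 10 and 22. The lowest cKO pool was above the highest WT pool. The log2 fold change was 0.49 ± 0.10 (SE, adjusted p = 0.0296), a 1.40-fold difference, and the exact two-sided Mann-Whitney test gave p = 0.00794, the smallest that 5 pools against 5 allow. The same gene in cKO MTAL was at 24.9, 24.7 and 37.6 CPM, with a log2 fold change against WT MTAL of 0.38 (adjusted p = 0.326). The Stard4 call in CTAL was lost when cKO CTAL replicate 4, 9 or 21 was left out, and likewise for WT CTAL replicates 10 and 22. Over all fits that left out 1 pool its log2 fold change stayed between 0.43 and 0.53, with an adjusted p of at most 0.0973.

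No sterol enzyme passed the test in cKO CTAL, and most lay above WT CTAL, with log2 fold changes from -0.29 (Lbr) to 0.71 (Mvd). Of the 19 sterol enzymes 18 had a log2 fold change above 0, with a median of 0.24 over them and 0.00 over all genes tested. Of the 28 members 26 were above 0 (92.9%, against 50.5% of all genes) and 13 had an unadjusted p under 0.05, all 13 of them higher, against 11.8% of all genes. The same pools were high for many of these genes, so the counts are not counts of independent genes. All 3 members whose pools did not overlap were higher in cKO (Stard4, Mvd and Nsdhl), against 1.9% of all genes higher and 1.23% lower without overlap.

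Mvd was at 9.21, 5.92, 5.91, 7.41 and 4.999 CPM in cKO CTAL replicates 2, 4, 7, 9 and 21, and at 3.15, 4.80, 3.55, 4.07 and 4.88 in the WT CTAL pools. Its lowest cKO pool was just above its highest WT pool, and the log2 fold change of 0.71 ± 0.21 (SE) had an adjusted p of 0.151. Nsdhl, which removes a methyl group from sterol intermediates, was at 24.3, 22.7, 23.0, 30.5 and 24.7 CPM against 20.5, 22.6, 22.6, 18.7 and 21.2 (log2 fold change 0.24 ± 0.11, SE, adjusted p = 0.418). The gap between the groups of Nsdhl was smaller than the spread within either one.

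Cyp51, the lanosterol demethylase, had the smallest adjusted p of the sterol enzymes in CTAL (0.0735, log2 fold change 0.53 ± 0.13, SE). It was at 66.6, 56.5, 49.9, 74.0 and 61.9 CPM in the cKO pools and at 52.1, 41.2, 41.7, 46.9 and 31.2 in the WT pools, so that cKO replicate 7 lay below WT replicate 1. Msmo1, the next demethylase of the chain, had a log2 fold change of 0.66 ± 0.18 (SE, adjusted p = 0.112), and Idi1, the isomerase of isopentenyl diphosphate, of 0.53 ± 0.16 (SE, adjusted p = 0.158). Scd2 was at 219, 68.4, 119.6, 135 and 103 CPM in cKO CTAL against 74.6, 66.5, 56.0, 79.9 and 67.5 in WT CTAL, with the top value in replicate 2 (log2 fold change 0.89 ± 0.22, SE, adjusted p = 0.0672). Scd1 was at 15.7 CPM in that same replicate, against 7.05 to 9.02 in the other cKO CTAL pools. Likelihood ratio tests called 4 members higher in CTAL: Cyp51, Msmo1, Stard4 and Scd2 with edgeR, and Idi1, Cyp51, Msmo1 and Stard4 with DESeq2. These tests also called more of all genes higher, 1.39% with edgeR and 1.5% with DESeq2.

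The cKO CTAL pools differed among themselves. Replicate 9 was the highest of its group for 14 of the 19 sterol enzymes and replicate 21 for 4, whereas replicates 4 and 7 were the lowest for 8 and 7. Relative to the mean of WT CTAL, the median of the 19 enzymes on the log2 scale was 0.23, 0.14, 0.05, 0.53 and 0.39 in cKO CTAL replicates 2, 4, 7, 9 and 21. In WT CTAL replicates 1, 3, 8, 10 and 22 it was 0.05, 0.10, -0.07, -0.08 and -0.09, so that cKO replicate 7 lay within the WT range. Replicates 2 and 9 were also the cKO CTAL pools with the most intercalated cell markers (150.2 and 125 CPM), while replicate 21, with 56.7 CPM, was second for the enzymes. Without replicates 2 and 9 no member was called in CTAL, 23 of 28 members were above 0 and their median was 0.18, and Stard4 had a log2 fold change of 0.46 (adjusted p = 0.149). The part of those cells in the values was not tested.

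**Figure D3:**
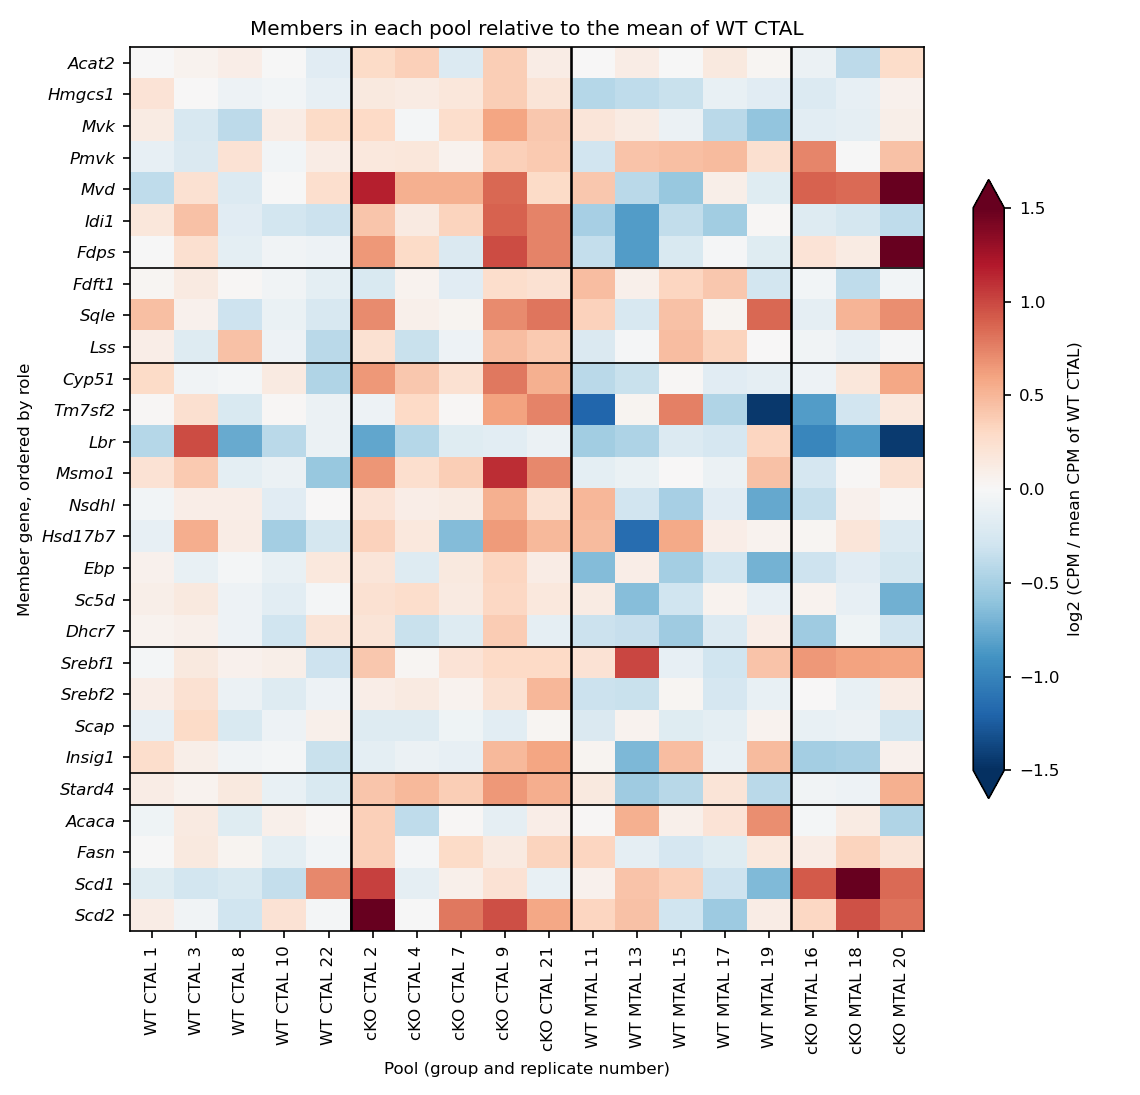
Each member (rows, by role) in each of the 18 pools (columns, by group and replicate number), as log2 of its CPM over its mean in WT CTAL, with the colour scale ending at 1.5 in both directions. The cKO CTAL columns 9 and 21 are red for most sterol enzymes, Fdps and Mvd are darkest in cKO MTAL 20, and Lbr stands out in WT CTAL 3 (23.5 CPM).

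**Figure D4:**
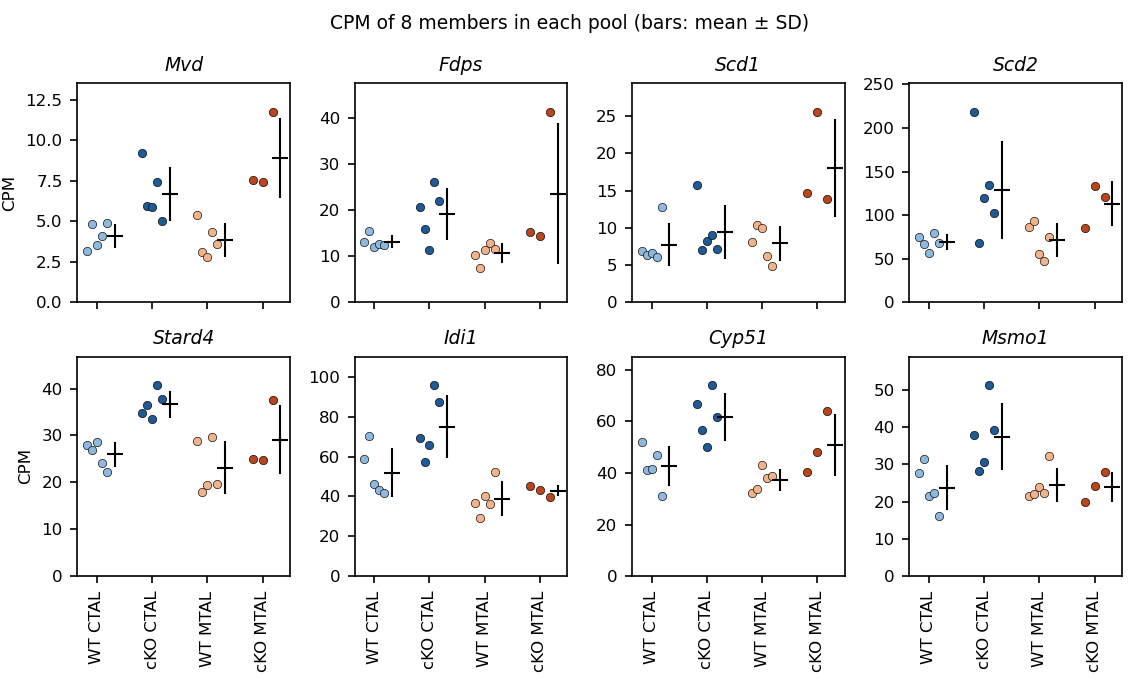
CPM (vertical axis, from 0) of 8 members in each pool of the 4 groups, with a dot for each pool and a bar for the mean ± SD. Stard4 does not overlap between cKO and WT in CTAL, Mvd overlaps in neither segment, and the cKO MTAL mean of Fdps rests on the pool at 41.3 CPM.

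Other genes of sterol handling and of lipid metabolism were read from lists of 28 and 31 genes, of which 24 and 26 were tested in these comparisons of genotypes. In MTAL 1 sterol gene rose and 1 fell, and 1 lipid gene rose and 2 fell, against 4.44% of all genes that rose and 2.57% that fell. Acsl5, an acyl-CoA synthetase, ran from 114 to 213 CPM in cKO MTAL against 59.6 to 81.1 in WT MTAL (log2 fold change 1.24 ± 0.16, SE, adjusted p = 0.000189), and Apoe, the lipoprotein ligand, rose by 0.82 on the log2 scale (adjusted p = 0.0133). Apoe lost its call without cKO MTAL replicate 18 (0.66, adjusted p = 0.051) or 20 (0.76, adjusted p = 0.0567). Acsl1, another acyl-CoA synthetase, fell by 0.67, Lpcat3, which remodels phospholipids, fell by 0.56 and Acacb, the mitochondrial acetyl-CoA carboxylase, fell by 0.47 (adjusted p = 0.00653, 0.00835 and 0.022). The Acacb call was lost without cKO MTAL replicate 16 or 18 or WT MTAL replicate 15 or 19, with an adjusted p of at most 0.0858.

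In CTAL 1 of the 24 sterol genes and 1 of the 26 lipid genes rose and none fell. Of all genes 0.658% rose and 0.564% fell. Apoe ran from 177 to 286 CPM in cKO CTAL against 83.0 to 149 in WT CTAL (log2 fold change 0.92 ± 0.16, SE, adjusted p = 0.011). Acsl5 rose by 0.65 (adjusted p = 0.0397), and that call was lost in 7 of 10 fits that left out 1 pool, with an adjusted p of up to 0.114. Apoe rose in both segments.

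Several marker lists moved with the genotype beside these genes. Of the clock genes tested, 4 fell and 1 rose among 11 in cKO MTAL, and 5 fell and 1 rose among 9 in cKO CTAL. Their summed level was 427 to 507 CPM in cKO MTAL against 672 to 992 in WT MTAL, and 407 to 526 CPM in cKO CTAL against 678 to 982 in WT CTAL. Nr1d2, Dbp and Tef, clock output genes, fell in both segments. Sterol synthesis genes are known to follow the clock and feeding in other tissues, and the part of time of day in these values was not tested. Of the 5 endothelial markers 3 fell in cKO MTAL, where they summed to 117 to 214 CPM against 221 to 335. In cKO CTAL none passed, but all 5 had a log2 fold change under 0 and 4 an unadjusted p under 0.05. Their sums there were 148 to 224 CPM against 178 to 413. Of the 5 intercalated cell markers 1, Atp6v0d2, rose in each segment. Of the 4 injury markers tested, 2 rose in cKO MTAL (Lcn2 and Spp1) and 0 passed in cKO CTAL by edgeR's quasi-likelihood test, where 2 had an unadjusted p under 0.05. Of the 8 immediate early genes, which respond within minutes to stress and handling, 5 fell in cKO CTAL, where they summed to 736 to 1156 CPM against 1018 to 2216, and 1 (Ier3) rose in cKO MTAL. The 4 thick limb markers summed to 55960 to 62588 CPM in cKO MTAL against 39257 to 49218 in WT MTAL, and 1 of them, Umod, rose. The 4 markers of the distal convoluted tubule summed to 156 to 203 CPM in cKO CTAL against 115 to 155, with no call among the 2 tested. Most of that sum was Sgms2, at 98.3 to 189 CPM over the pools, while Slc12a3 ran from 1.58 to 60.8. Trpm6 and Pvalb were at most 3.47 and 0.775 CPM. Of the 3 proximal tubule markers tested 1 rose in cKO MTAL, and Xist fell there. The part of these cells and states in the members' values was not tested.

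Adipocytes make much fatty acid, and their 8 markers summed to 25.4 to 80.7 CPM over the pools. Most of that was Fabp4, which capillary endothelium also makes, at 20.1 to 77.9 CPM. It fell in cKO MTAL (log2 fold change -1.03 ± 0.23, SE, adjusted p = 0.0147). Pck1, an enzyme of glucose synthesis that the proximal tubule also makes, was at 2.22 to 19.4 CPM. The other 6, Adipoq, Plin1, Cidec, Lep, Retn and Cfd, were each at 0.282 CPM or below in every pool.

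The third comparison, WT MTAL against WT CTAL, gives the starting difference between the segments. No member passed edgeR's quasi-likelihood test, against 2.76% of 11650 genes that were higher and 4.1% that were lower in MTAL, and 4 of the 28 members had an unadjusted p under 0.05 against 19.1% of all genes. On CPM no member was without overlap, against 3.21% of all genes higher and 4.09% lower. On TPM Hmgcs1 and Ebp were lower in MTAL without overlap (exact two-sided Mann-Whitney p = 0.00794 for each). The median log2 fold change was -0.09 over the members and 0.02 over all genes. Hmgcs1 came closest: it was at 214, 222, 229, 266 and 256 CPM in WT MTAL replicates 11, 13, 15, 17 and 19 and at 333, 289, 274, 281 and 265 in WT CTAL replicates 1, 3, 8, 10 and 22, which overlap in a single pair of pools. Its log2 fold change was -0.29 ± 0.09 (SE, adjusted p = 0.0554), and likelihood ratio tests of edgeR and DESeq2 called it lower, with 4.98% and 5.23% of all genes. Among the other genes of the pathway, 1 of 24 sterol genes was lower and 3 higher, and 4 of 26 lipid genes were lower and 1 higher. Acsl5 was lower in MTAL by a log2 fold change of -0.91 ± 0.11 (SE, adjusted p = 8.07e-05) and Fads1, a fatty acid desaturase, by -1.005 ± 0.14 (SE, adjusted p = 0.000266). Elovl6, which lengthens palmitate, was higher in MTAL by 0.89 ± 0.16 (SE, adjusted p = 0.0016). Apoe and Lpin1 were lower in MTAL (log2 fold changes -0.64 and -0.53), and Abcg1 was higher (1.31). Of the 10 fits that left out 1 pool, 10 kept the call of Apoe, 9 that of Lpin1 and 7 that of Abcg1.

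The fourth comparison, cKO MTAL against cKO CTAL, gives the difference between the segments after the deletion, and shares its pools with the comparisons of genotypes. By edgeR's quasi-likelihood test Idi1 was lower in MTAL and no member was higher, against 0.631% of 12044 genes lower and 1.12% higher. Likelihood ratio tests called 2 members higher, Srebf1 and Scd1, together with 4.43% of all genes in edgeR and 4.89% in DESeq2. Idi1 was at 45.3, 43.3 and 39.8 CPM in cKO MTAL replicates 16, 18 and 20, and at 69.4, 57.3, 65.8, 95.8 and 87.3 in cKO CTAL replicates 2, 4, 7, 9 and 21. The groups lay well apart (log2 fold change -0.74 ± 0.16, SE, adjusted p = 0.0447, exact two-sided Mann-Whitney p = 0.0357). In WT the same gene was at 36.7, 29.1, 40.2, 36.2 and 52.4 CPM in MTAL and 58.7, 70.2, 46.2, 43.1 and 41.7 in CTAL, which overlap. The Idi1 call was lost without any 1 of cKO CTAL replicates 2, 7, 9 and 21 or cKO MTAL replicates 16 and 20. Over all fits that left out 1 pool its log2 fold change ran from -0.82 to -0.64, with an adjusted p of at most 0.105. Of Idi1's 31-base words 18.8% occur in other genes, mostly the pseudogene-like Gm13502, which was at 9.02 CPM or below in every pool.

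Without overlap 6 members were lower in cKO MTAL than in cKO CTAL (Hmgcs1, Idi1, Lbr, Msmo1, Nsdhl and Sc5d) and 1 was higher (Srebf1), against 7.28% and 3.49% of all genes. All 9 later sterol enzymes had a log2 fold change under 0, with a median of -0.30. Of all genes 54% lay above 0, and their median was 0.03. The same pools were high for many of these enzymes, so they are not independent. Without cKO CTAL replicate 9 the median over the 28 members was -0.12, against -0.18 with it. Srebf1 was at 64.4, 62.0 and 61.7 CPM in cKO MTAL and at 54.0, 41.7, 47.3, 50.3 and 50.2 in cKO CTAL (log2 fold change 0.44 ± 0.11, SE, adjusted p = 0.0697). The edgeR likelihood ratio test gave it an adjusted p of 0.0249. Scd1, at 14.6, 25.6 and 13.9 CPM in cKO MTAL against 7.05 to 15.7 in cKO CTAL, overlapped between the groups (log2 fold change 0.996 ± 0.29, SE, adjusted p = 0.101). Of the sterol enzymes other than Idi1, Msmo1 had the smallest adjusted p, at 0.147 (log2 fold change -0.57 ± 0.20, SE). On TPM the pools of Hmgcs1, Lbr, Msmo1, Nsdhl, Sc5d and Srebf1 overlapped. Marker lists differed between these groups as well: 7 of the 8 immediate early genes were higher in cKO MTAL, all 7 without overlap, and they summed to 2320 to 2570 CPM against 736 to 1156 in cKO CTAL. The immune marker Cd74 was lower. Their part in the members' values was not tested.

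**Figure D5:**
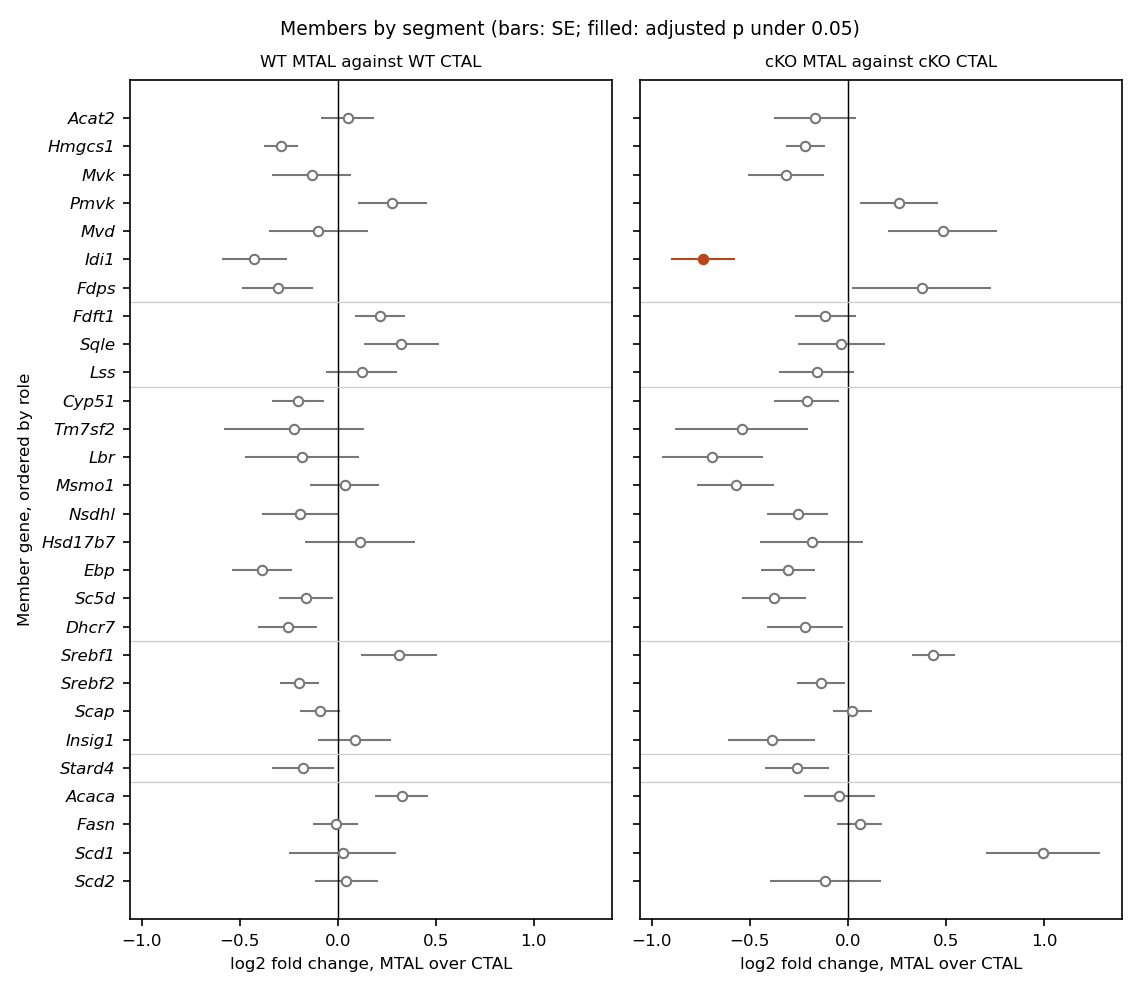
log2 fold change of MTAL over CTAL (horizontal axis) for each member (vertical axis, by role) in WT (left; 5 against 5 pools) and cKO (right; 3 against 5), with bars of 1 SE and filled points where adjusted p was under 0.05. Idi1 is the single filled point, and all 9 later sterol enzymes lie under 0 in cKO.

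The interaction of genotype and segment asks whether the change with genotype differed between MTAL and CTAL. No member passed edgeR's quasi-likelihood test, against 0.286% of 12586 genes, and no member passed in any of the 28 other fits. At an unadjusted p under 0.05 there were 2 of the 28 members, against 14.7% of all genes: Msmo1 (log2 difference -0.65 ± 0.28, SE, adjusted p = 0.276) and Scd1 (0.94 ± 0.42, SE, adjusted p = 0.297). So the calls of Mvd, Fdps, Scd1 and Scd2 in MTAL and of Stard4 in CTAL were not shown to differ between the segments.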

How the data were processed

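The left kidney was perfused with liberase, and thin pyramids cut from it were incubated in liberase again. Tubules were microdissected by hand, and stranded libraries were sequenced as paired reads. Per the labels and the study's methods, the authors checked reads with FastQC, trimmed them, and mapped and quantified them with DRAGEN on mm10 with the mouse GENCODE annotation, release 25. Whether counting used strand, and how reads with several matches were shared, is not given in the sources used here. The authors deposited estimated counts per gene, which were rounded to whole numbers here, and TPM, which they scaled to length and depth. The design had assumed whole counts, and the same test was kept.

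Counts were fitted with edgeR 4.0.16 (quasi-likelihood F test, TMM scaling) in R 4.3.3, on the pools of the 2 groups compared or on all 18 for the interaction, and p was adjusted by Benjamini-Hochberg over all genes tested. A gene was kept if it reached 3 CPM in 5 pools, and in 3 for comparisons with cKO MTAL. "Rose" and "fell" mean an adjusted p under 0.05, and SE is the fold change over the root of F. CPM used TMM factors over all 18 pools, and exact Mann-Whitney tests used that CPM. DESeq2 1.42.0 and limma 3.58.1 served as alternatives. The fit was tested on simulated counts with known changes. Gene spans came from GENCODE M21 and promoters from RefSeq, both on GRCm38.

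The members and lists were chosen with earlier results of these data known. Members were named with values where they passed the test or their pools did not overlap, and other pathway genes where they passed, at most 6 per comparison. Cyp51, Msmo1, Hmgcs1 and Scd2 in comparisons where they met neither rule were named after their values were seen. All 18 columns of each table were used. A gene of the wider pathway lists and a gene of the marker lists are not reported here.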

Additional observations from a re-analysis of the deposited data

Results flagged for a closer look

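In 84 sets of a member and a group of 5 pools, 5 held a pool far from the other 4 by Dixon's gap ratio, which flags about 1 set in 20 by chance. Lbr was at 23.5 CPM in WT CTAL replicate 3, against 7.04 to 11.2 in the other WT CTAL pools. Msmo1 was at 32.4 CPM in WT MTAL replicate 19, against 21.6 to 23.9. Nsdhl was at 30.5 CPM in cKO CTAL replicate 9, the pool that was highest for 14 of the 19 sterol enzymes, against 22.7 to 24.7. Scd1 was at 12.8 CPM in WT CTAL replicate 22, against 6.06 to 6.85, and at 15.7 CPM in cKO CTAL replicate 2, against 7.05 to 9.02. These pools also had the most proximal tubule markers of their groups (66.8 and 70.4 CPM), whose part in the Scd1 values was not tested. The group of 3 cKO MTAL pools, which holds the Fdps value of 41.3 CPM, was too small for this rule. No member had pools that moved in opposite directions without overlap in the 2 segments.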

How the results depend on the processing

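The calls of members lay close to the threshold, and their number changed with many settings. No member that was called or whose pools did not overlap changed sign in any fit. In MTAL by genotype 4 members were higher, with 0 in all 3 limma fits on TPM, 0 to 3 when 1 pool was left out, 1 without the collecting duct pools and 2 without the injury marker pools. In CTAL by genotype 1 member was higher, with 4 by edgeR's likelihood ratio test and by both DESeq2 tests, 2 with total counts in place of TMM, and 0 in the 3 limma fits, in 1 fit of all 18 pools, without the collecting duct pools and with a term for the pools with Xist; leaving out 1 pool gave 0 to 2. With WT CTAL replicate 1 counted as cKO CTAL, Stard4 had an adjusted p of 0.081. Between WT segments 0 members were lower, with 1 by the edgeR and DESeq2 likelihood ratio tests, the DESeq2 Wald test, total counts, 1 fit of all 18 pools (Hmgcs1 in each) and limma with a filter at either pseudocount (Ebp), and 0 to 1 when 1 pool was left out. Between cKO segments 1 member was lower, with 0 in the 3 limma fits and without the collecting duct or injury marker pools, and 0 to 1 when 1 pool was left out; 0 members were higher, with 2 by the likelihood ratio tests and the Wald test (Srebf1 and Scd1), 1 without the collecting duct pools, 1 without the injury marker pools, 1 with the Xist term, and 0 to 1 when 1 pool was left out. The fits without collecting duct or injury marker pools and with the Xist term were added after seeing the data. Apart from fits with fewer pools, the cause of these changes was not tested. Over all genes, the TPM fits moved the median log2 fold change to 0.22 in MTAL and 0.11 in CTAL, and gave 258 and 73 calls against 845 and 143, of which 90.3 and 87.7% were higher against 63.3 and 53.8%. No paired analysis was possible because the groups share no replicate numbers. With 3 cKO MTAL pools no exact test against 5 pools could give a p under 0.0357, and Mvd had as few as 51 counts in a pool.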
